A study of Homo sapiens with 6 samples.

Results

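This section describes 9 genes for RNA-binding proteins that bring the CCR4-NOT complex to mRNAs, namely ZFP36, ZFP36L1, ZFP36L2, RC3H1, RC3H2, PUM2, NANOS1, CPEB2 and CPEB4. They were selected by gene name from the 58735 genes of the count table, and all 9 had enough counts to be tested among 17574 tested genes. RNA was sequenced from 3 CNOT7 control libraries and 3 CNOT7 knockdown libraries of untreated colorectal cancer cells, in which CNOT7 was lowered by a stable shRNA. The labels name the cell line SW480, whereas the study's text names HCT116 for its RNA sequencing, and which libraries are control and which are knockdown does not depend on the name. All libraries come from 1 cell line, the sources used here do not say which shRNA the knockdown cells carry, and nothing states that the 3 libraries of a group came from separate cultures, so that p-values measure only the spread between these libraries.

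CCR4-NOT is the main deadenylase of the cytoplasm. It shortens the poly(A) tail of an mRNA, after which the mRNA is decapped and degraded or is no longer translated efficiently. CNOT1 is its scaffold, CNOT7 and CNOT8 are interchangeable catalytic subunits of one kind, and CNOT6 and CNOT6L are catalytic subunits of another. The complex has little preference for particular mRNAs on its own, and RNA-binding proteins give it its targets. ZFP36 (also called TTP), ZFP36L1 and ZFP36L2 bind AU-rich elements in 3′ untranslated regions (3′ UTRs). The Roquin proteins RC3H1 and RC3H2 bind short stem-loops. Pumilio proteins such as PUM2 bind a UGUA-containing element, often together with Nanos proteins such as NANOS1. CPEB proteins such as CPEB2 and CPEB4 bind the U-rich cytoplasmic polyadenylation element and can repress or activate an mRNA. Several of these proteins limit their own synthesis or that of their relatives through the same kinds of elements.

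The 3′ UTRs of these genes hold the elements that members of the group bind, and the following stretches are shown for that reason. Each is 30 bases of the coding strand from GENCODE release 29 transcripts, 5′ to 3′, all in the last exon, with the searched letters in capitals. The first 7 show the AU-rich heptamer TATTTAT, and the last 3 show the Pumilio element TGTANATA.
ZFP36 at chr19:39409181-39409210 (GRCh38, + strand): aatgggcccttTATTTATgacgactttatt
ZFP36L1 at chr14:68788335-68788364 (GRCh38, - strand): ttatcaaaacgTATTTATtgccaaactatg
ZFP36L2 at chr2:43223447-43223476 (GRCh38, - strand): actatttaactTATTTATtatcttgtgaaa
PUM2 at chr2:20251452-20251481 (GRCh38, - strand): taaagcaaaacTATTTATtgactttattca
NANOS1 at chr10:119031480-119031509 (GRCh38, + strand): aaaaaattgtgTATTTATacagtaacagta
CPEB2 at chr4:15068991-15069020 (GRCh38, + strand): tttacagatcaTATTTATtttactattttt
CPEB4 at chr5:173956922-173956951 (GRCh38, + strand): gggagtgcactTATTTATttaacttactta
PUM2 at chr2:20251142-20251171 (GRCh38, - strand): gtttatagagaTGTATATAgaattatagtc
RC3H1 at chr1:173936907-173936936 (GRCh38, - strand): atagctatatcTGTATATAtattgggtatg
RC3H2 at chr9:122847905-122847934 (GRCh38, - strand): gactgataagtTGTAAATAtacctgagaaa

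All 9 genes held TATTTAT in the 3′ UTR, against 31.8% of 13591 tested genes with an annotated 3′ UTR. The share was 43.3% of the 8078 genes whose 3′ UTR lay within the same range of lengths, 713 to 7507 bases. A shared range is not a match in length. Within it, genes with TATTTAT had a median 3′ UTR of 2542.5 bases and those without it 1524 bases. RC3H2 held 5 copies in 5071 bases and CPEB4 held 4 copies in 5839 bases. ZFP36 held 3 copies in only 713 bases, the shortest 3′ UTR of the group. ZFP36L1 and ZFP36L2 also held 3 copies each, in 1871 and 1917 bases. NANOS1 and PUM2 held 1 copy each, and CPEB2 and RC3H1 held 2 each. The Pumilio element was found in PUM2 itself, RC3H1 and RC3H2, with 2 copies in each, which is 3 of the 9 genes, against 26.3% of the 13591 genes and 35.8% of those within the length range. The cytoplasmic polyadenylation element TTTTAT was present in all 9 genes in 56.9% of the 13591 genes and in 75.2% of those within the length range, with 18 copies in CPEB2 and 15 in CPEB4. Only the sense strand was searched, and 3 of the heptamers, 2 in RC3H1 and 1 in RC3H2, shared bases with TTTTAT. A match is a run of letters and not evidence of binding.

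The libraries held 23788451 to 29104872 counts. CNOT7 fell from 169, 191 and 176 CPM (read counts scaled to the library total with TMM factors) in control libraries 1, 2 and 3 to 43.4, 47.2 and 38.6 CPM in knockdown libraries 1, 2 and 3, a log2 fold change of -2.05 (standard error 0.0734, edgeR quasi-likelihood test, adjusted p = 2.64e-12). Genes were called at an adjusted p-value under 0.05 over all tested genes (Benjamini-Hochberg), with no minimum fold change, which called 25.2% of them. Of 10 colorectal epithelial markers, 8 were tested. The 10 summed to 5555 to 5972 CPM in the control and 5133 to 5684 CPM in the knockdown libraries. Most of this sum came from the keratins KRT8, KRT18 and KRT19, with control means of 2750, 2025 and 720 CPM. CDH17, KRT20 and CDX1 were at 0.566, 0.0532 and 0 CPM in the control mean. Of the 8, VIL1 (log2 fold change 0.72) and CDH1 (0.51) rose and KRT8 (-0.15) and KRT19 (-0.18) fell, and the part of these changes in the results for the 9 genes was not tested. The markers of other cell types summed to 9.07 to 10.8 CPM in the control and 10.2 to 11.95 CPM in the knockdown libraries for 6 fibroblast genes (COL3A1 and DCN at 0 in all libraries), to at most 3.95 CPM for 6 leukocyte genes, and to 1.68 to 2.335 CPM in the control and 2.75 to 3.48 CPM in the knockdown libraries, without overlap, for 4 endothelial genes.

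Of the 9 genes, NANOS1 and CPEB4 fell with CNOT7 knockdown, by 15.9% and 16.1%, and none rose. The share called, 22.2%, was close to the 25.2% of all tested genes (11.9% lower and 13.3% higher). The groups did not overlap for 4 of the 9, NANOS1, CPEB4, CPEB2 and ZFP36L2, against 38.8% of all tested genes. When the call also required a log2 fold change of at least 1 in size, 0 of the 9 genes and 3.63% of all tested genes passed. The log2 fold changes lay between -0.27 and 0.09, with 7 below 0 and a median of -0.15, and the median over all tested genes was 0.00393. A bulk library cannot tell less RNA per cell from fewer cells that express a gene.

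**Figure D1:**
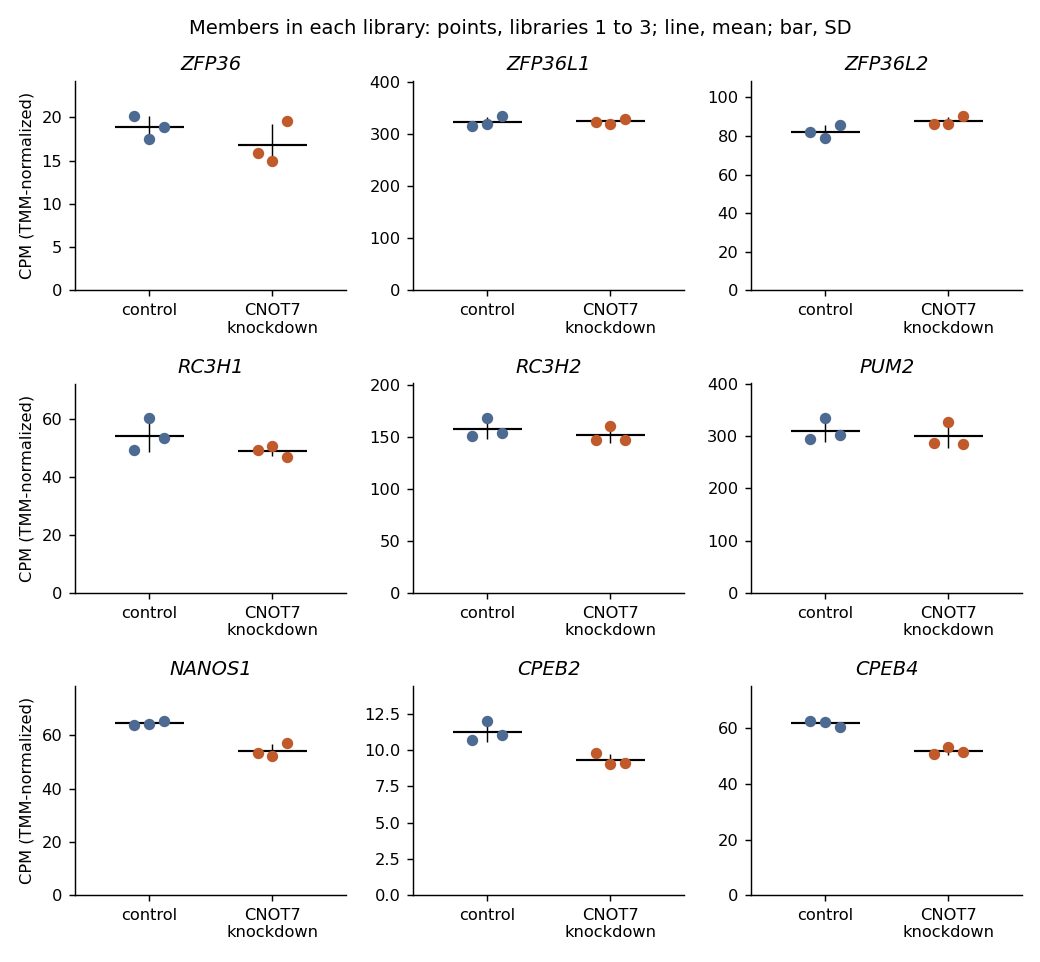
CPM after TMM normalization (y axis, from 0) of each of the 9 genes in the 3 control and 3 CNOT7 knockdown libraries, with the mean as a line and the SD as a bar. The knockdown points lie below all control points in NANOS1, CPEB2 and CPEB4 and above them in ZFP36L2, and the groups overlap in the other 5 genes.

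None of the 3 ZFP36 genes passed the test. ZFP36L1 (ENSG00000185650, chromosome 14, 68787660 to 68796253), a repressor of AU-rich mRNAs of growth factors and cell cycle regulators, stood at 315, 319.7 and 336 CPM in control libraries 1, 2 and 3 and at 325, 320.0 and 330.5 CPM in knockdown libraries 1, 2 and 3. The knockdown values lay within the control range. The log2 fold change was 0.0069 (standard error 0.0497, 95% interval -0.10 to 0.11, adjusted p = 0.939, edgeR), the narrowest interval of the 9 genes.

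ZFP36L2 (ENSG00000152518, chromosome 2, 43222402 to 43226609), which acts on the same kind of element and is known for its role in blood stem cells, measured 81.9, 79.1 and 85.8 CPM in the control and 86.2, 86.0 and 90.4 CPM in the knockdown libraries. Every knockdown library was above every control library, by a gap much smaller than the spread within either group. The difference did not pass the test, at 0.09 on the log2 scale (standard error 0.0585, 95% interval -0.03 to 0.21, adjusted p = 0.292, edgeR).

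ZFP36 (ENSG00000128016, chromosome 19, 39406813 to 39409412), the founding member, which is induced within minutes by growth factors and inflammatory signals, had 20.2, 17.5 and 18.9 CPM in the control and 15.9, 15.0 and 19.6 CPM in the knockdown libraries. Knockdown libraries 1 and 2 were the lowest of the 6, and knockdown library 3 lay between the control libraries. With 406 to 584 counts per library, the log2 fold change was -0.16 (standard error 0.104, 95% interval -0.38 to 0.06, adjusted p = 0.287, edgeR). The value moved with single libraries, to -0.29 with an adjusted p of 0.0468 without knockdown library 3 and to -0.09 with an adjusted p of 0.598 without knockdown library 2 (edgeR).

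Summed per kilobase of gene length, the 3 ZFP36 genes reached 94.3 ± 2.94 CPM per kilobase (SD, n = 3) in the control and 95.1 ± 2.87 (SD, n = 3) in the knockdown libraries. ZFP36L1 made up 66.5% ± 0.916 (SD, n = 3) of this sum in the control and 66.3% ± 0.963 (SD, n = 3) in the knockdown libraries. The share of ZFP36 was 9.93% ± 0.711 (SD, n = 3) and 8.79% ± 0.9997 (SD, n = 3) in the same order. The share of ZFP36L2 was 23.2% to 23.8% in the control and 24.8% to 25.1% in the knockdown libraries. The ranges of the ZFP36L2 share did not overlap, while those of the other 2 genes did.

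The Roquin genes did not pass the test. RC3H2 (ENSG00000056586, chromosome 9, 122844556 to 122905341), which encodes Roquin-2, measured 151, 168 and 153 CPM in the control and 147, 161 and 147 CPM in the knockdown libraries, a log2 fold change of -0.05 (standard error 0.0597, 95% interval -0.18 to 0.07, adjusted p = 0.578, edgeR). RC3H1 (ENSG00000135870, chromosome 1, 173931214 to 174022297), which encodes Roquin-1 and represses TNF and ICOS mRNAs in immune cells, measured 49.3, 60.4 and 53.6 CPM in the control and 49.4, 50.8 and 47.2 CPM in the knockdown libraries. Control library 2 was the highest of the 6 libraries in both genes, and the groups overlapped in both. The log2 fold change of RC3H1 was -0.15 (standard error 0.0751, 95% interval -0.31 to 0.01, adjusted p = 0.170, edgeR), and -0.07 without control library 2.

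PUM2 (ENSG00000055917, chromosome 2, 20248691 to 20352234), a Pumilio repressor of mRNAs for cell division and growth, measured 294, 333 and 303 CPM in the control and 287, 326 and 285 CPM in the knockdown libraries. Library 2 was the highest of both groups, and the groups overlapped. The log2 fold change was -0.05 (standard error 0.0626, 95% interval -0.18 to 0.08, adjusted p = 0.606, edgeR).

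NANOS1 (ENSG00000188613, chromosome 10, 119029716 to 119033732) encodes a zinc finger protein that joins Pumilio on mRNAs and binds CNOT1 directly. It measured 63.9, 64.3 and 65.4 CPM in the control and 53.5, 52.3 and 57.0 CPM in the knockdown libraries. All knockdown libraries were below all control libraries, and the control libraries differed from each other by less than 2 CPM. The log2 fold change was -0.25 (standard error 0.0622, 95% interval -0.38 to -0.12, adjusted p = 0.00682, edgeR). The call held in all 12 alternative fits, which set no minimum fold change. Adjusted p-values reached up to 0.0421 when control library 3 was left out (edgeR). A stretch of 63 exonic bases, 1.57% of the gene, is shared with EIF3A on the opposite strand, which had a log2 fold change of -4.4e-04 (edgeR adjusted p = 0.996).

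The other Nanos genes had few counts. NANOS3 had 9 to 23 counts per library, so that its log2 fold change of -0.07 had a 95% interval from -1.005 to 0.86 (edgeR adjusted p = 0.927). NANOS2 had 3 counts over all 6 libraries and was not tested. NANOS1 made up 96.8% ± 1.43 (SD, n = 3) of the Nanos sum per kilobase in the control and 96.4% ± 1.63 (SD, n = 3) in the knockdown libraries, and the sum itself went from 16.6 ± 0.445 to 14.0 ± 0.886 CPM per kilobase (SD, n = 3 each).

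CPEB4 (ENSG00000113742, chromosome 5, 173888280 to 173961976), which directs poly(A) tail changes in mitosis and in stressed cells, measured 62.6, 62.0 and 60.4 CPM in the control and 50.8, 53.2 and 51.3 CPM in the knockdown libraries. The groups were well apart, with at least 7 CPM between the nearest libraries. The log2 fold change was -0.25 (standard error 0.0611, 95% interval -0.38 to -0.12, adjusted p = 0.00555, edgeR). The call held in all 12 alternative fits, which set no minimum fold change. Adjusted p-values reached up to 0.0313 when knockdown library 1 was left out (edgeR).

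CPEB2 (ENSG00000137449, chromosome 4, 15002674 to 15070153), a close relative of CPEB4, measured 10.7, 11.995 and 11.1 CPM in the control and 9.79, 9.06 and 9.07 CPM in the knockdown libraries. The groups did not overlap, and the estimate was the lowest of the 9 genes, but its interval was also among the widest. The gene had only 250 to 279 counts per library. The log2 fold change was -0.27 (standard error 0.103, 95% interval -0.49 to -0.05, adjusted p = 0.0638, edgeR), just outside the threshold. With cyclic loess offsets for the abundance trend it was -0.33 with an adjusted p of 0.0275 (edgeR). A stretch of 140 exonic bases, 1.95% of CPEB2, is shared with an antisense gene that had at most 5 counts per library.

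CPEB3, the third family member with counts, had 3.31, 4.21 and 3.23 CPM in the control and 4.3997, 4.78 and 3.96 CPM in the knockdown libraries. Its groups overlapped, and the log2 fold change of 0.29 had a 95% interval from -0.04 to 0.63 (edgeR adjusted p = 0.199). CPEB1 had 2 counts over all 6 libraries and was not tested. The CPEB sum was 8.02 ± 0.213 CPM per kilobase (SD, n = 3) in the control and 6.89 ± 0.147 (SD, n = 3) in the knockdown libraries. CPEB4 made up 74.8% ± 1.502 (SD, n = 3) and 73.1% ± 0.969 (SD, n = 3) of it, while the share of CPEB3 went from a control range of 5.21% to 6.44% to a knockdown range of 7.399% to 8.56%. The shares of CPEB4 overlapped between the groups, and those of CPEB3 did not.

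**Figure D2:**
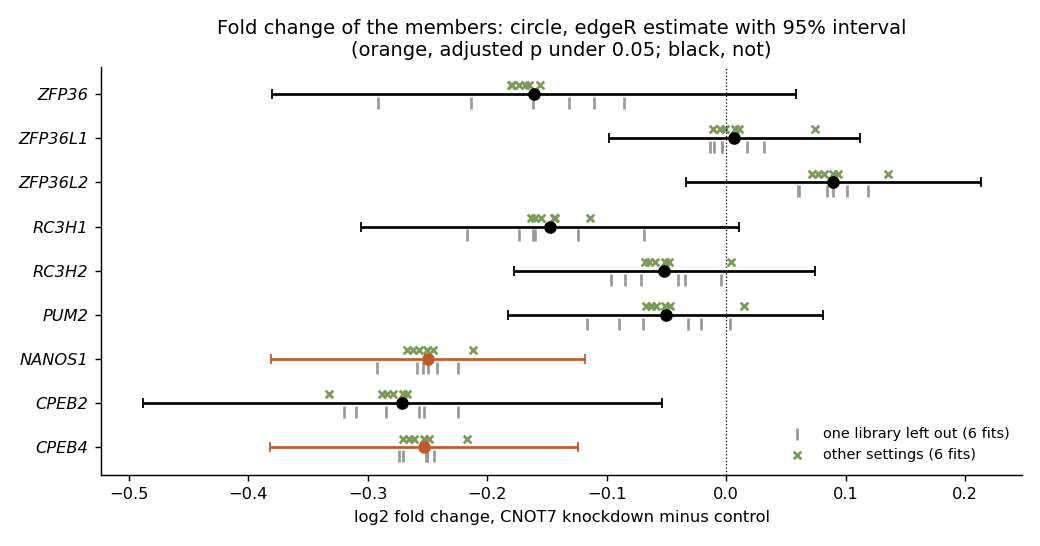
Log2 fold change, CNOT7 knockdown minus control (x axis), of each of the 9 genes, with the 95% interval of the edgeR fit as a bar, the 6 fits without a library as grey ticks and the 6 other settings as green crosses. NANOS1 and CPEB4, in orange, passed the adjusted p threshold. They stay below 0 in every fit, as do the uncalled CPEB2, ZFP36 and RC3H1, and ZFP36L1 sits at 0.

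Levels of different genes were compared as CPM per kilobase of merged exons, a length that can exceed that of the transcript in use. On this scale ZFP36L1 was the most abundant in the control libraries with 62.7 ± 2.07 (SD, n = 3). PUM2 followed with 44.4 ± 2.98 (SD, n = 3) and ZFP36L2 with 22.3 ± 0.912 (SD, n = 3). NANOS1 was at 16.1 ± 0.191, RC3H2 at 13.6 ± 0.805 and ZFP36 at 9.37 ± 0.672 CPM per kilobase (SD, n = 3 each). The lowest were CPEB4 with 6.003 ± 0.112, RC3H1 with 4.73 ± 0.486 and CPEB2 with 1.57 ± 0.0955 (SD, n = 3 each). No neighbours in this order overlapped between their control libraries. In the knockdown libraries the order of the means was the same, but NANOS1, at 13.01 to 14.2 CPM per kilobase, overlapped RC3H2, at 12.7 to 13.9.

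**Figure D3:**
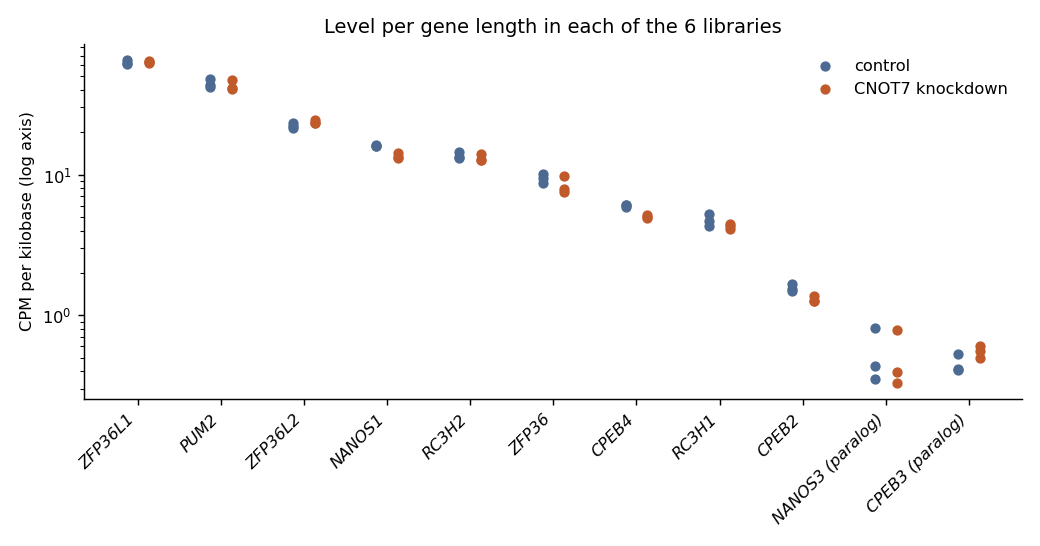
CPM per kilobase of gene length (y axis, log scale) of the 9 genes and of 2 paralogs in the control and CNOT7 knockdown libraries, 1 point per library, ordered by the control mean. ZFP36L1 is highest near 62.7 and CPEB2 is the lowest of the 9 near 1.57, with the paralogs NANOS3 and CPEB3 below it.

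The genes whose profile over the 6 libraries was most like that of CPEB4, by the root mean square difference of centred log2 CPM among 13217 genes with a mean log2 CPM of at least 1, were PRMT5 (0.0175), PPFIA1 (0.0193) and ABHD3 (0.0197). PRMT5 encodes an arginine methyltransferase and PPFIA1 a liprin of cell adhesion sites. Their log2 fold changes were -0.24, -0.23 and -0.23. The likeness was measured over both groups, so that values near the -0.25 of CPEB4 follow from the choice. No such comparison was made for a rise, since no gene of the group rose.

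Of 11 subunits of the CCR4-NOT complex, which these proteins recruit, all were tested. Of them, 3 fell, with the shRNA target CNOT7 included, 1 rose and 7 did not pass the test. The share called was 36.4%, where 25.2% of all tested genes were called, and the median log2 fold change was -0.04. Besides CNOT7, CNOT9 fell, from 117, 119 and 119.9 CPM in the control to 99.0, 105 and 97.0 CPM in the knockdown libraries (log2 fold change -0.24, standard error 0.0556, edgeR adjusted p = 0.00367). CNOT9 is the subunit that binds the tryptophans of several recruiting proteins, and it did not overlap between the groups. CNOT3, a subunit of the regulatory module, fell by 0.17 on the log2 scale (edgeR adjusted p = 0.0338), and leaving out any library except control library 2 lost this call, as did cyclic loess offsets. CNOT8, the paralog of CNOT7, rose from 64.3, 68.7 and 63.8 CPM to 78.1, 84.1 and 78.4 CPM (log2 fold change 0.29, standard error 0.0613, edgeR adjusted p = 0.00204). CNOT1, the scaffold that the ZFP36 and Nanos proteins contact, had a log2 fold change of -0.06 (edgeR adjusted p = 0.473).

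Of 9 other RNA-binding proteins that recruit the complex, Nanos and CPEB paralogs included, 6 were tested, 2 fell and none rose. The share called was 33.3%, where 25.2% of all tested genes were called, and the median log2 fold change was -0.07. SAMD4A, a Smaug protein that binds stem-loops, went from 111, 110.1 and 114 CPM to 67.6, 68.5 and 64.3 CPM. The groups were far apart, and the log2 change of -0.74 (standard error 0.0568, edgeR adjusted p = 5.28e-08) was larger in size than that of any of the 9 genes. YTHDF2, which binds N6-methyladenosine in mRNAs, fell by 0.18 on the log2 scale (standard error 0.0533, edgeR adjusted p = 0.0206). It lost the call without control library 1, without control library 3, without knockdown library 3 and with cyclic loess offsets, so that 1 gene of this list was then called instead of 2.

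Of 6 genes listed as other binders of AU-rich elements (ELAVL1, HNRNPD, KHSRP, TIA1, TIAL1 and ZC3H12A), 0 were called by edgeR and 0 by DESeq2. The list, named the other binders below, also holds ZC3H12A, which cleaves mRNAs at stem-loops and is not such a binder. The rest stabilize, destabilize or silence the same mRNAs as the ZFP36 proteins. Of the 6, 2 had an unadjusted edgeR p under 0.05, and all 6 log2 fold changes lay between -0.16 and -0.02. Of all tested genes, edgeR called 25.2%. Without control library 2, and likewise without knockdown library 3, edgeR called 1 of the 6 listed genes.

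Known target mRNAs of these proteins were also read from the fit, from lists written by hand. Of 21 mRNAs with AU-rich elements that ZFP36 proteins are known to act on, 19 were tested, 12 fell, 3 rose and 4 did not pass the test. Those called were 78.9% of the tested mRNAs, where 25.2% of all tested genes were called, and the median log2 fold change was -0.23. The list was written with earlier results of these data known, so that its share is not independent evidence of a difference from other genes, and the genes with TATTTAT taken as a whole had a median of -0.01. The largest falls were in the cytokine CSF2 (log2 fold change -1.08), the apoptosis inhibitor BIRC3 (-0.87), the cytokine LIF (-0.60) and the chemokine CXCL3 (-0.42). The rises were in the transcription factors FOS (0.42) and MYC (0.39) and in the cell cycle inhibitor CDKN1A (0.32). TNF, the best known target of ZFP36, was at 12.7 ± 1.004 CPM (SD, n = 3) in the control and 12.6 ± 1.42 CPM (SD, n = 3) in the knockdown libraries (edgeR adjusted p = 0.947). IL6 and PTGS2 had too few counts for a test. CXCL3 lost the call with DESeq2 and in 4 of the 6 fits without 1 library, with adjusted p-values up to 0.0753. Without knockdown library 1 the list had 8 called genes, 5 lower and 3 higher, while over all genes 3106 of 17796 were called. Without control library 2, and likewise without control library 3, it had 10.

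Of 10 Pumilio target mRNAs, all tested, 4 fell and none rose, where 11.9% of all tested genes were called lower and 13.3% higher. The median log2 fold change was -0.06. This list was also written with earlier results of these data known, so that its share is not independent evidence of a difference from other genes. The genes with the Pumilio element taken as a whole had a median of -0.01. The 4 that fell were the cyclin CCNE2 (log2 fold change -0.61), the transcription factor E2F3 (-0.44), the replication clamp PCNA (-0.24) and the cohesin subunit SMC1A (-0.21). All 4 kept the call in all 12 alternative fits, which set no minimum fold change. CDKN1B, a cell cycle inhibitor known as a Pumilio target, had a log2 fold change of 0.06 (edgeR adjusted p = 0.508).

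ZFP36 belongs to the immediate early genes, which growth factors induce without new protein synthesis. Of 17 such genes, all tested, 4 rose, 4 fell and 9 did not pass the test, with a median log2 fold change of -0.0076. The share called was 47.1%, where it was 25.2% of all tested genes, and this list too was written with earlier results known. EGR2 (log2 fold change 1.12), FOS, BTG2 (0.39) and MYC rose, and KLF6 (-0.46), EGR3 (-0.37), JUN (-0.26) and IER3 (-0.19) fell. EGR2 had only 14 to 26 counts per control library and 48 to 58 per knockdown library, with a standard error of 0.265. BTG2 lost the call without knockdown library 1 (adjusted p = 0.0764, edgeR) and without control library 2 (0.0526), and IER3 lost it with cyclic loess offsets (0.0753) and without knockdown library 1 (0.0517). ZFP36 itself, EGR1 (0.04, edgeR adjusted p = 0.607) and NR4A1 (-0.0076, edgeR adjusted p = 0.954) were among the 9.

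**Figure D4:**
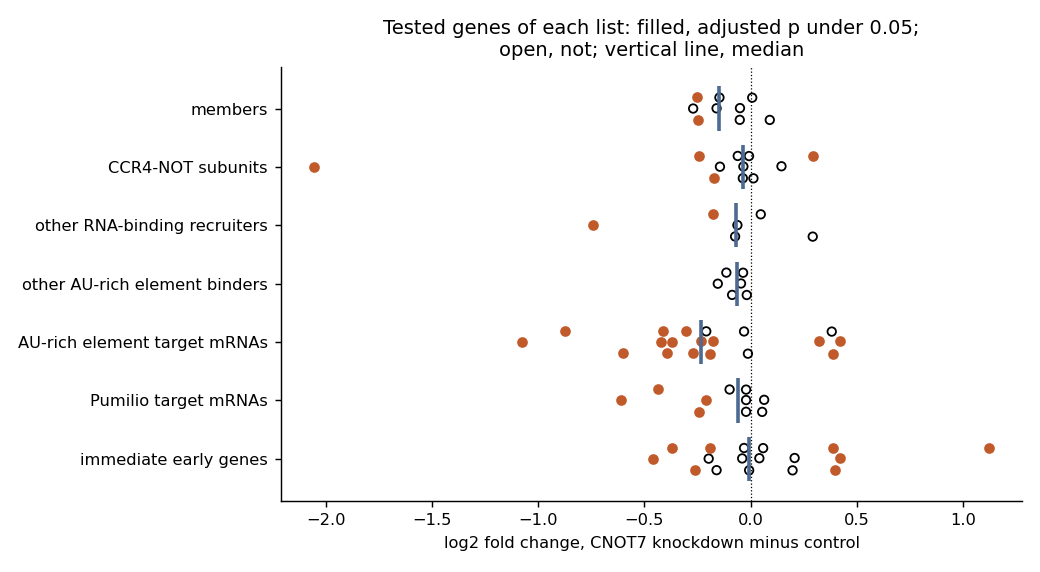
Log2 fold change, CNOT7 knockdown minus control (x axis), of the tested genes of each list, filled where the adjusted p was under 0.05, with the list's median as a vertical line. The 9 members lie between -0.27 and 0.09, while the targets with AU-rich elements spread from -1.08 to 0.42 and CNOT7 lies at -2.05.

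Among the 13591 tested genes with an annotated 3′ UTR, medians were also compared between genes with and without each element. The 4321 genes with TATTTAT had a median log2 fold change of -0.01, and the 9270 genes without it of -0.0062. The 785 genes with 3 or more copies had a median of -0.02, with 15.0% called higher and 17.6% called lower, against 14.6% and 13.9% of the genes with no copy. Among genes of the 9 genes' length range, 13.2% of the 605 with 3 or more copies were called higher and 18.8% lower, against 16.5% and 15.0% of the 4584 with no copy. The 3571 genes with the Pumilio element had a median of -0.01, and the 10020 genes without it of -0.0060. The 7730 genes with TTTTAT had a median of -0.01 and the 5861 without it of -0.0027, and within the length range the medians were -0.0087 and 0.0137. Genes with an element have longer 3′ UTRs, with a median of 2375 bases with TATTTAT and 708 bases without it. Within the length range the medians still differed, at 3762 bases with 3 or more copies and 1524 bases with no copy. The part of length in these differences was not tested.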

How the data were processed

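Total RNA was extracted by the authors with TRIzol and made into libraries with an NEBNext Ultra kit. The submitters' processing notes list CASAVA 1.8, fastp, HISAT2 2.0.5, featureCounts 1.5.0-p3 and DESeq2 1.20.0, on GRCh38. The authors deposited raw counts per gene and library, without normalization, and a gene length in bases. The strand setting is not given in the sources used here, so reads of a gene and of an antisense gene cannot be told apart. Start and end matched GENCODE release 29 for 58724 of 58735 genes, and the length of each of the 9 genes equals its merged exons.

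The tests used edgeR 4.0.16 under R 4.3.3 (filterByExpr, TMM, glmQLFit and glmQLFTest over all tested genes, no replicate term). Standard errors were derived from the fold change and the F statistic, as its size over the root of F. The alternatives were DESeq2 1.42.0, RLE factors, no filter, a floor of 10 counts per library, a replicate block, cyclic loess offsets (limma 3.58.1), an absolute log2 fold change of at least 1, each library left out, and, for levels, CPM without length or library totals in place of TMM. Replicates differed by more than sampling noise. The steps were tested on simulated data. Elements were searched with Python 3.11.15 in the 3′ UTR of 1 protein-coding transcript per gene. Transcripts tagged principal came first, then those tagged alternative, then untagged ones. Among equals the longest 3′ UTR was taken. Named in the text are CNOT7, the 9 genes, Nanos and CPEB paralogs, up to 4 called rises and 4 called falls per list and the 3 nearest profiles. TNF, CDKN1B, EGR1, NR4A1, CNOT1, KRT20, CDX1, CDH17, COL3A1, DCN, VIL1, CDH1, KRT8, KRT18, KRT19, IL6 and PTGS2 were named after their values were seen. The element search was added then, and the members and lists were chosen with earlier results of these data known. A gene of the list of other recruiting proteins is not reported here and was left out of its counts.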

Additional observations from a re-analysis of the deposited data

How the results depend on the processing

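NANOS1 and CPEB4 kept their direction and call in all 12 alternative fits. Cyclic loess offsets turned 2 uncalled values, PUM2 to 0.015 and RC3H2 to 0.0044. ZFP36L1, at 0.0069, changed sign to -0.0054 with DESeq2, to -0.011 with no filter on low counts and to -9.9e-04 with RLE factors, and lay between -0.013 and 0.032 with 1 library left out. In those fits PUM2 lay between -0.12 and 0.0030 and NANOS3 between -0.55 and 0.36. Whether the replicate numbers pair the libraries is not known. The deviations of same-numbered libraries from their group means correlated at 0.0228, 0.153 and -0.0153, and those of other pairs at -0.151 to 0.132. These correlations cannot decide the question, since genes with few counts weigh in them as much as others. With a replicate block 4 of the 9 genes were called (also CPEB2 and RC3H1, adjusted p 0.0357 and 0.0300, edgeR), 2 of the other binders of AU-rich elements were called instead of 0, and the count over all genes went from 4424 to 6508. With no filter 1 of those binders was called, and with cyclic loess 1 of the other recruiting proteins instead of 2. A minimum absolute log2 fold change of 1 left 638 genes in all, 0 of the 9 genes, 0 of the other recruiting proteins, 0 Pumilio targets, and 1 gene each among the subunits, the AU-rich targets and the immediate early genes. With 1 library left out, the called AU-rich targets numbered 8 to 14, the other binders 0 to 1 and the other recruiting proteins 1 to 2. Without division by gene length 6 of the 9 genes changed rank in level. The cause of these shifts was not tested. CPEB2 and ZFP36 had the fewest counts of the 9 genes, at most 279 and 584 per library. They also had the largest standard errors, 0.103 and 0.104 (edgeR), and the part of depth in this was not tested.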
